A study of Mus musculus with 16 samples.

Results

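Wnt signalling was followed through 8 genes across mouse mammary fibroblast lines: the agonist Rspo3, the ligand Wnt5a, the secreted modulators Dkk2, Dkk3, Sfrp1 and Sfrp2, and the pathway targets Axin2 and Ccn4 (Wisp1). The members were chosen by name, with earlier results of these data known. They are taken with every probe of each gene and hold 12 of the 25697 probes on the array. Detection was reached by 7 of the 8 genes and 11 of the 12 probes, which were tested among 10453 probes and 7454 genes in all.

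The data are 16 Illumina bead arrays of 8 fibroblast lines, 2 arrays each, all on the FVB/N background. Lines NF2 and NF3 came from normal mammary gland, HpAF1 from hyperplasia, AdAF1 from adenoma, and CAF1 to CAF4 from carcinoma of the MMTV-PyMT model. In that model the mouse mammary tumour virus promoter drives the polyoma middle T oncogene, chiefly in mammary epithelium, so the fibroblasts are cells of the surrounding stroma. Every line, normal ones included, was immortalized with E6 of human papillomavirus, was untreated, and was held for 72 h on a deformable matrix of Matrigel and collagen I in serum-containing medium before RNA was taken. The age of the animals is not stated by the labels. Hyperplasia and adenoma are 1 line each, so stage and line cannot be told apart there. The labels number the arrays of a line as replicates 1 and 2, called cultures below, without saying whether they were grown separately, so p-values between lines measure the spread between these arrays, which may be technical.

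Wnt proteins bind Frizzled receptors with LRP or ROR partners. In the canonical branch this stops the destruction complex of Axin, APC and GSK3 from degrading beta-catenin, which then acts with TCF/LEF factors on targets such as Axin2. R-spondins keep Frizzled receptors on the cell surface by removing the ubiquitin ligases Znrf3 and Rnf43, while Sfrp proteins bind Wnts and Dkk1-type proteins block LRP. In many tissues stromal fibroblasts supply Wnts and R-spondins to the epithelium, and in the mammary gland Wnt signals are known for their part in branching and in tumours.

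The fibroblast label was checked first. Of 11 fibroblast markers, including Col1a1, Pdgfra, Vim and Thy1, all 11 were tested and between 9 and 11 were detected on each array. Their levels varied, and 6 differed among lines by limma's F test (54.6%, beside 25.9% of all tested genes). In log2, Vim averaged 12.08 in HpAF1, against 13.53 in NF2 and 13.25 in NF3, and S100a4 6.75, against 8.52 and 8.25. Dcn went the other way in HpAF1, at 13.75, against 10.19 in NF2, 11.86 in NF3 and 7.51 in CAF2. None of the 8 measured epithelial markers and none of the 4 measured leukocyte markers were detected on any array. Tek, detected on 15 of 16 arrays, was the only one of 6 endothelial markers that was tested. The arrays detected between 7445 and 9823 probes. The median difference between the cultures of a line, over all tested probes and regardless of sign, was 0.346 in NF2 and 0.386 in NF3, against 0.128 to 0.319 in the 6 lesion lines.

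Values below are normalized log2 intensities after background correction, so a difference of 1 is a doubling, and a dim probe's differences are compressed toward the background. A probe counts as detected on an array when its detection p was under 0.01. The lowest signal that counted as detected lay between 5.72 and 6.77 depending on the array, so a value of the same size can be detected on one array and not on another. Levels of different probes are not set against each other.

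Of the 7 tested members, 4 differed among the 8 lines by limma's moderated F test at an adjusted p under 0.05, namely Rspo3, Wnt5a, Dkk3 and Axin2, where 25.9% of all tested genes did. Because the members were chosen with earlier results of these data known, setting those shares side by side does not test the set. Axin2 met the filter for testing only through the arrays of CAF3 and CAF4. With stages in place of lines, a single call was made, Rspo3 in hyperplasia. The plot of the 8 genes by line shows Rspo3 alone at the top in HpAF1, Wnt5a alone at the top in CAF3, and Dkk3 high in HpAF1, AdAF1, CAF1 and CAF3.

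**Figure D1:**
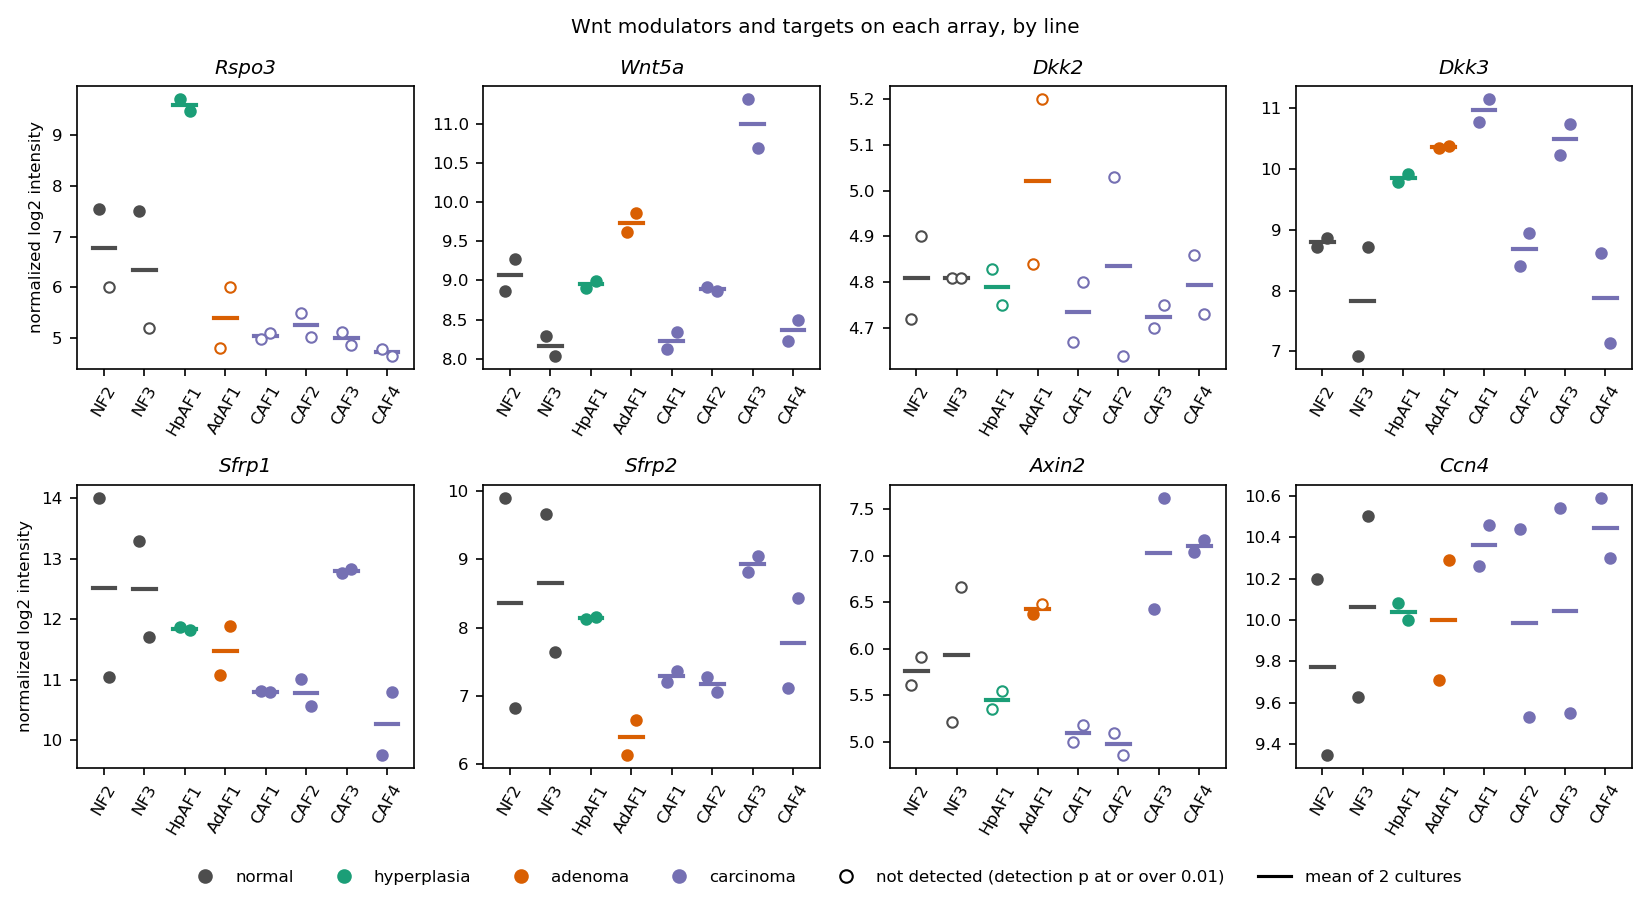
Normalized log2 intensity (y axis, a separate scale in each panel) of the 8 genes on the 16 arrays, grouped by line (x axis) in order of stage. Points are cultures, culture 1 left of culture 2, open where not detected, and bars are the means of 2 cultures. Rspo3 reached 9.72 and 9.48 in HpAF1 and was not detected in AdAF1 or any carcinoma line, Wnt5a was highest in CAF3, and Dkk2 was not detected anywhere.

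Rspo3, an R-spondin that amplifies Wnt signals, was highest in the hyperplasia line. It stood at 7.55 and 6.00 for NF2, 7.51 and 5.19 for NF3, 9.72 and 9.48 for HpAF1, 4.80 and 6.00 for AdAF1, 4.98 and 5.09 for CAF1, 5.50 and 5.02 for CAF2, 5.12 and 4.87 for CAF3, and 4.79 and 4.65 for CAF4. The probe was detected on 4 arrays, both of HpAF1 and culture 1 of each normal line, and on no array of the adenoma line or the 4 carcinoma lines. Both HpAF1 arrays lay above all 14 others, and the normal arrays split, with culture 1 well above culture 2 in NF2 and in NF3.

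HpAF1 exceeded NF2 by 2.82 (SE 0.66, adjusted p = 0.0171) and NF3 by 3.24 (SE 0.66, adjusted p = 0.00804) in limma's line model, and Rspo3 thus counted as apart from both normal lines. Genes called apart in HpAF1 in either direction made up 7.96% of all tested genes. All 7 pairs with HpAF1 were called (adjusted p between 0.000468 and 0.0171), of 28 pairs tested for each gene, where 7.23% of all gene by pair tests were called. Because the probe was not detected in AdAF1 or the carcinoma lines, the folds are bounds: HpAF1 was at least 9.20-fold above CAF2 and at least 13.6-fold above CAF3, with the other 3 in between. Ordered by level, HpAF1 came first, then NF2 and NF3, and the 5 lines in which Rspo3 was not detected have no order among them. Only the step between HpAF1 and NF2 was called. The call against both normal lines was lost without HpAF1 culture 1, without HpAF1 culture 2 or without NF2 culture 2.

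With lines as the replicates, hyperplasia minus normal was 3.03 for Rspo3 (SE 0.31, adjusted p = 0.0206, limma), from means of 9.60 in HpAF1 and 6.57 over the 2 normal lines. Called genes in this comparison were 0.322% of those tested. With the line as a random block and the culture number as a replicate block the adjusted p was 0.0501 at the same difference, and 0.0869 was reached when genes needed 4 arrays with detection. It was 0.111 with culture 1 alone (difference 2.19) and 0.022 with culture 2 alone (difference 3.88), and between 0.0759 and 0.114 without NF2 culture 2, NF3 culture 1 or NF3 culture 2. The fit took the spread from line means, which for Rspo3 had a residual SD of 0.243 (median over all tested probes 0.278), although the cultures within NF2 and within NF3 differed by 1.55 and 2.32. The carcinoma lines that enter this SD did not detect Rspo3, so it partly measures background. The SEs of Rspo3 in the stage comparisons may therefore be too small. For the later stages Rspo3 had means of 5.40 in adenoma and 5.00 in carcinoma, against 6.57 in normal lines, and neither difference passed (both adjusted p = 1, limma). Carcinoma minus normal was -1.56 (SE 0.22, unadjusted p = 0.00021). Detection was reached on 0 of 8 carcinoma arrays, against 2 of 4 normal arrays, and as a bound carcinoma was at least 1.39-fold lower.

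Some mesothelial markers were high in HpAF1 beside Rspo3. Of the 7 listed, 3 were detected on both HpAF1 arrays, and the summed intensity of the list there was 1083 to 1184, against 380 to 494 on the arrays of the normal lines and 242 to 382 on those of the other lesion lines. Upk3b averaged 9.25 in HpAF1, against 4.85 in NF2 and 4.94 in NF3, and was not detected outside HpAF1. It was the only one of the 3 tested genes that passed in hyperplasia against normal (adjusted p = 0.00361, limma). That call adds little to its detection, since Upk3b met the filter for testing only through the HpAF1 arrays. Wt1 averaged 7.94 in HpAF1, against 6.63 in NF2 and 5.61 in NF3, and did not pass (adjusted p = 0.333). Upk1b, detected on all 16 arrays, averaged 7.32 in HpAF1, between 6.80 in NF2 and 7.59 in NF3. Krt19 was detected on 1 of 16 arrays and averaged 4.57 in HpAF1, and Msln, Lrrn4 and Gpm6a were detected on none of the 16 arrays. Their part in the Rspo3 level was not tested, and in bulk RNA a larger share of such cells and more RNA per cell cannot be told apart.

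Rspo2, the other R-spondin that was tested, ran another way and is named by the rule of largest range in its list. Its values were 7.53 and 5.22 for NF2, 7.85 and 4.92 for NF3, 4.62 and 4.64 for HpAF1, 6.61 and 7.45 for AdAF1, 6.97 and 7.17 for CAF1, 10.10 and 9.02 for CAF2, 6.75 and 7.23 for CAF3, and 7.31 and 8.23 for CAF4. The line with the highest Rspo3 was thus the only one in which Rspo2 was detected on no array, and in every adenoma and carcinoma line Rspo2 was detected on both arrays and Rspo3 on none. As bounds, Rspo2 was at least 8.28-fold higher in CAF2 than in HpAF1 (adjusted p = 0.00204, limma) and at least 2.40-fold higher in CAF4 than in HpAF1 (adjusted p = 0.0269), the 2 pairs called of 28. In CAF2 the summed pericyte markers were also high, at 811 to 1981 against 217 to 338 in the normal lines and 383 to 465 in CAF3. Mcam averaged 9.49 in CAF2, against 5.39 in NF2 and 5.95 in NF3, and Cspg4 7.07, against 5.63 and 5.58. Notch3 averaged 7.68 in CAF2 but also 7.77 in CAF3. Rgs5 was detected on 1 array, and Kcnj8 and Abcc9 on none. The part of these markers in the Rspo2 level was not tested. The R-spondins Rspo1 and Rspo4, the receptors Lgr5 and Lgr6 and the ligases Znrf3 and Rnf43 were detected on no array. The further receptor Lgr4 had no probe and was not measured.

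**Figure D2:**
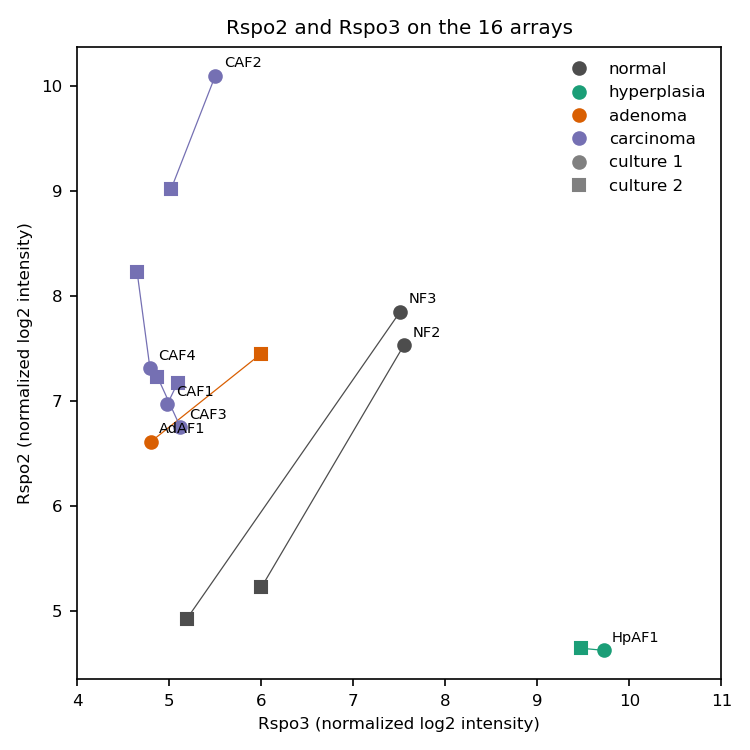
Rspo2 (y axis) against Rspo3 (x axis) in normalized log2 intensity on the 16 arrays, with circles for culture 1, squares for culture 2 and a line joining the cultures of a line. HpAF1 lies alone at high Rspo3 and low Rspo2, CAF2 at the opposite corner, and in NF2 and NF3 both genes were higher in culture 1 than in culture 2.

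Wnt5a, a ligand of the branch of Wnt signalling that does not run through beta-catenin, was highest in the carcinoma line CAF3. Its brighter probe, detected on all 16 arrays, gave 8.86 and 9.27 for NF2, 8.29 and 8.04 for NF3, 8.91 and 8.99 for HpAF1, 9.62 and 9.86 for AdAF1, 8.12 and 8.34 for CAF1, 8.92 and 8.86 for CAF2, 11.32 and 10.69 for CAF3, and 8.23 and 8.50 for CAF4. The CAF3 arrays lay above the other 14, the AdAF1 arrays came next, and the other 3 carcinoma lines fell within the range of the normal and hyperplasia arrays.

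The lines differed in Wnt5a with an adjusted p of 7.29e-05 (limma F test), and 12 of 28 pairs were called. CAF3 differed from each of the other 7 lines: it exceeded NF2 by 1.94 (SE 0.24, adjusted p = 0.00109) and NF3 by 2.84 (adjusted p = 5.31e-05), and was therefore apart from both normal lines, as were 1.5% of tested genes in CAF3. The step between CAF3 and AdAF1, the next line down, was 1.26 (adjusted p = 0.0103) and was the only neighbouring step called for Wnt5a. Over all genes 0.742% of neighbouring steps were called, and among the members 2 were, this one and the step between HpAF1 and NF2 in Rspo3. AdAF1 exceeded NF3 by 1.58 (adjusted p = 0.00394) but not NF2 (0.68, adjusted p = 0.201).

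The dimmer Wnt5a probe, detected on 7 arrays, also peaked in CAF3, at 7.99 and 7.43, against 6.22 and 6.96 in NF2 and 6.03 and 5.19 in NF3. It differed in 6 of 28 pairs, and CAF3 was called against NF3, where no array detected it (at least 1.97-fold higher, adjusted p = 0.011), but not against NF2 (1.12, adjusted p = 0.145). The call that places CAF3 apart from both normal lines therefore rests on the brighter probe. The 2 probes correlated at 0.848 over the 16 arrays, which share their RNA and their normalization.

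As a stage, carcinoma minus normal was 0.51 for Wnt5a (SE 0.78, adjusted p = 1, limma), with a 95% interval from -1.33 to 2.35. The residual SD of the line means was 1.16 for Wnt5a. Without line CAF3 the carcinoma difference was -0.12. The receptor Ror2 was detected on all 16 arrays and the receptor Ryk too, and neither passed the F test among lines (adjusted p = 0.0839 and 0.0976, limma). Of 28 pairs of lines, 2 were called for Ror2 and 3 for Ryk, where 7.23% of all gene by pair tests were called.

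Dkk3, a secreted glycoprotein of the Dickkopf family that, unlike Dkk1, is not an established LRP blocker, had a range of line means of 3.14, the widest of the members after Rspo3 (4.88). By its brightest probe it gave 8.72 and 8.86 for NF2, 6.93 and 8.72 for NF3, 9.79 and 9.92 for HpAF1, 10.34 and 10.38 for AdAF1, 10.77 and 11.15 for CAF1, 8.40 and 8.95 for CAF2, 10.23 and 10.74 for CAF3, and 8.62 and 7.13 for CAF4. All 8 arrays of HpAF1, AdAF1, CAF1 and CAF3 lay above all 8 arrays of the normal lines, CAF2 and CAF4, so carcinoma lines fell on both sides.

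Of 28 pairs, 9 were called for the brightest Dkk3 probe (F test adjusted p = 0.0044, limma). Against NF3 the differences were 2.03 in HpAF1 (adjusted p = 0.0288), 2.54 in AdAF1 (0.0229), 3.14 in CAF1 (0.00547) and 2.66 in CAF3 (0.0224), each with an SE of 0.53. Against NF2 none of the 4 passed, the nearest being CAF1 (2.17, adjusted p = 0.0547), so by this probe no line was apart from both normal lines. CAF1 was apart from both in the authors' normalized table, with median scaling, with an offset of 50 and with the probes of a gene averaged. Background shares for that call were 1.42% of genes in AdAF1, 2.46% in CAF1, 2.05% in CAF2 and 0.698% in CAF4, and no member was called in these 4 lines in the fit reported here. Among carcinoma lines, CAF2 minus CAF1 was -2.28 (adjusted p = 0.0152), CAF4 minus CAF1 was -3.08 (adjusted p = 0.00402) and CAF4 minus CAF3 was -2.61 (adjusted p = 0.0233).

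The second Dkk3 probe gave the same ranking at the top, CAF1, CAF3, AdAF1 and HpAF1, and correlated with the first at 0.978 over 16 arrays. By that probe CAF1 was apart from both normal lines, at 2.15 above NF2 (adjusted p = 0.0262) and 2.61 above NF3 (adjusted p = 0.00639). The third probe, detected on the 2 CAF1 arrays only, averaged 6.05 in CAF1 and 4.85 or less in the normal lines. It called CAF1 and HpAF1 apart from both, although HpAF1 and the normal lines were not detected by it. Because it met the filter for testing only through the CAF1 arrays, its calls add no support to that of the second probe. Without NF3 culture 2 the brightest probe placed CAF1 and CAF3 apart from both normal lines, and without NF3 culture 1, CAF4 culture 1 or CAF4 culture 2 it placed CAF1 apart. Culture 1 minus culture 2 was -1.79 in NF3, a difference matched or exceeded in size by 3.35% of probes there, and 1.50 in CAF4.

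**Figure D3:**
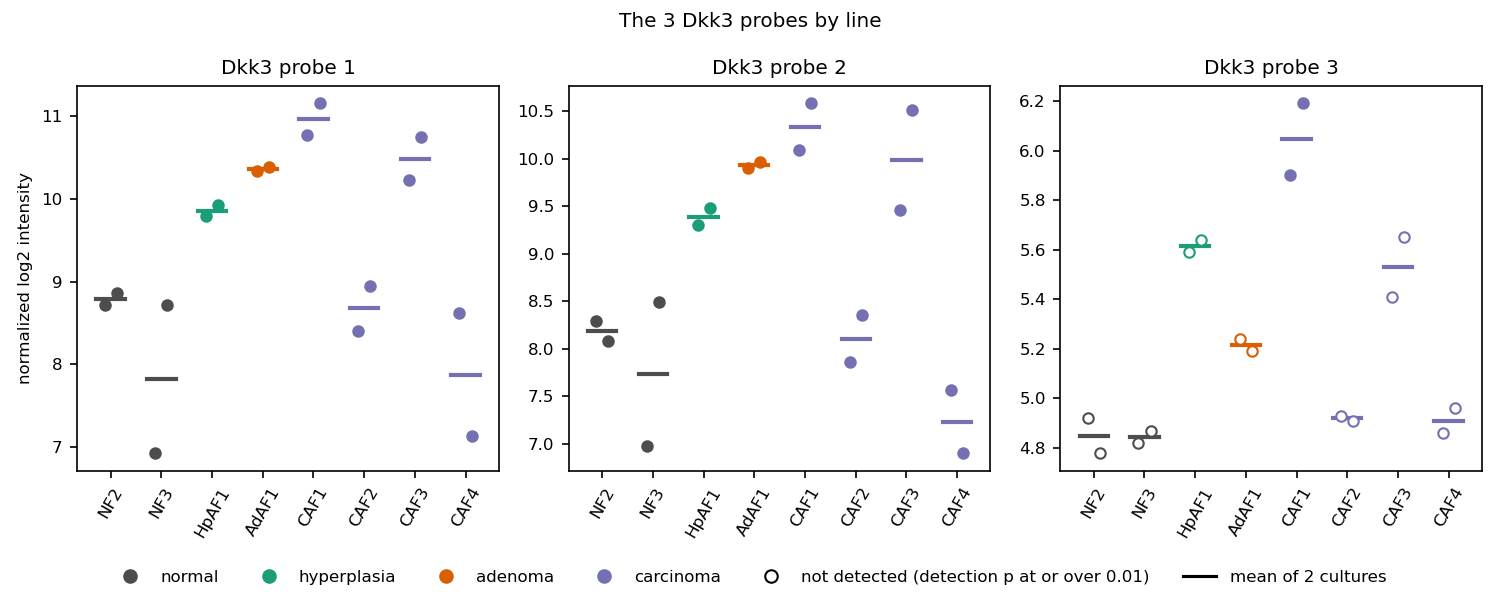
The 3 Dkk3 probes, each on its own scale of normalized log2 intensity (y axis), on the 16 arrays grouped by line (x axis). Points are cultures, open where not detected, and bars are means of 2 cultures. CAF1 had the highest mean by every probe, and CAF2 and CAF4 lay near the normal lines. The third probe was detected in CAF1 only.

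Stage differences for Dkk3 were positive in all 3 lesion stages and none passed. They were 1.55 in hyperplasia (SE 1.24, adjusted p = 0.668), 2.05 in adenoma (SE 1.24, adjusted p = 1) and 1.19 in carcinoma (SE 0.88, adjusted p = 1, limma). The carcinoma interval ran from -0.88 to 3.26. Both comparisons of the later stages called 0% of genes, that is 0 of 7454 in adenoma and 0 of 7454 in carcinoma. No member could therefore stand out there by adjusted p. An unadjusted p under 0.05 in limma was reached by 288 genes in adenoma (3.86%) and 196 in carcinoma (2.63%). Both shares are below the 0.05 that this threshold lets through without any difference.

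Dkk2, another Dickkopf protein that acts on LRP co-receptors, was detected on 0 of 16 arrays. Its values ran from 4.64 to 5.20, at the background of the array, and it was not tested. Dkk1, Dkk4, Sfrp4, Frzb and Wif1, further secreted inhibitors, were likewise detected on no array, so of the inhibitor genes with a probe Dkk3, Sfrp1 and Sfrp2 were measured here together with Notum, Apcdd1 and Kremen1.

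Sfrp1, a secreted Frizzled-related protein that binds Wnts, was bright on every array. It gave 14.01 and 11.04 for NF2, 13.29 and 11.70 for NF3, 11.87 and 11.82 for HpAF1, 11.07 and 11.89 for AdAF1, 10.81 and 10.80 for CAF1, 11.01 and 10.56 for CAF2, 12.76 and 12.84 for CAF3, and 9.76 and 10.79 for CAF4. Culture 1 of both normal lines held the 2 highest values, and CAF3 followed, while the second cultures of NF2 and NF3 overlapped the lesion lines.

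Sfrp2, its close relative, repeated that layout at its own scale. Its values were 9.90 and 6.83 for NF2, 9.67 and 7.64 for NF3, 8.13 and 8.16 for HpAF1, 6.14 and 6.65 for AdAF1, 7.21 and 7.37 for CAF1, 7.28 and 7.06 for CAF2, 8.82 and 9.05 for CAF3, and 7.12 and 8.43 for CAF4. Again culture 1 of both normal lines was highest and CAF3 came next, and AdAF1 held the lowest mean.

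Neither Sfrp gene differed among lines (adjusted p = 0.117 for Sfrp1 and 0.226 for Sfrp2, limma F test), with 0 of 28 pairs called for each, and both passed when either NF2 culture was left out. Carcinoma minus normal was -1.35 for Sfrp1 (SE 0.65, unadjusted p = 0.0786, adjusted p = 1) and -0.72 for Sfrp2 (SE 0.49, adjusted p = 1). Adenoma minus normal was -2.11 for Sfrp2 (SE 0.69, unadjusted p = 0.0183, adjusted p = 1, limma). With culture 2 alone, adenoma minus normal was 0.52 for Sfrp1, and carcinoma minus normal was 0.74 for Sfrp2, so those directions turned with the culture.

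The cultures of the normal lines differed in Sfrp1, Sfrp2 and Rspo3 together, always with culture 1 higher. In NF2 culture 1 exceeded culture 2 by 2.97 for Sfrp1, 3.07 for Sfrp2 and 1.55 for Rspo3, differences matched in size by 0.258%, 0.23% and 2.58% of all tested probes in that line. In NF3 the same differences were 1.59, 2.03 and 2.32, matched by 4.6%, 2.17% and 1.33% of probes. Rspo2 was also higher in culture 1 of both lines. In HpAF1 and CAF1 the cultures differed by 0.25 or less for these 3 members, and in CAF4 culture 1 minus culture 2 was -1.03 for Sfrp1 and -1.30 for Sfrp2. With 2 cultures per line, no test between culture numbers was made.

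**Figure D4:**
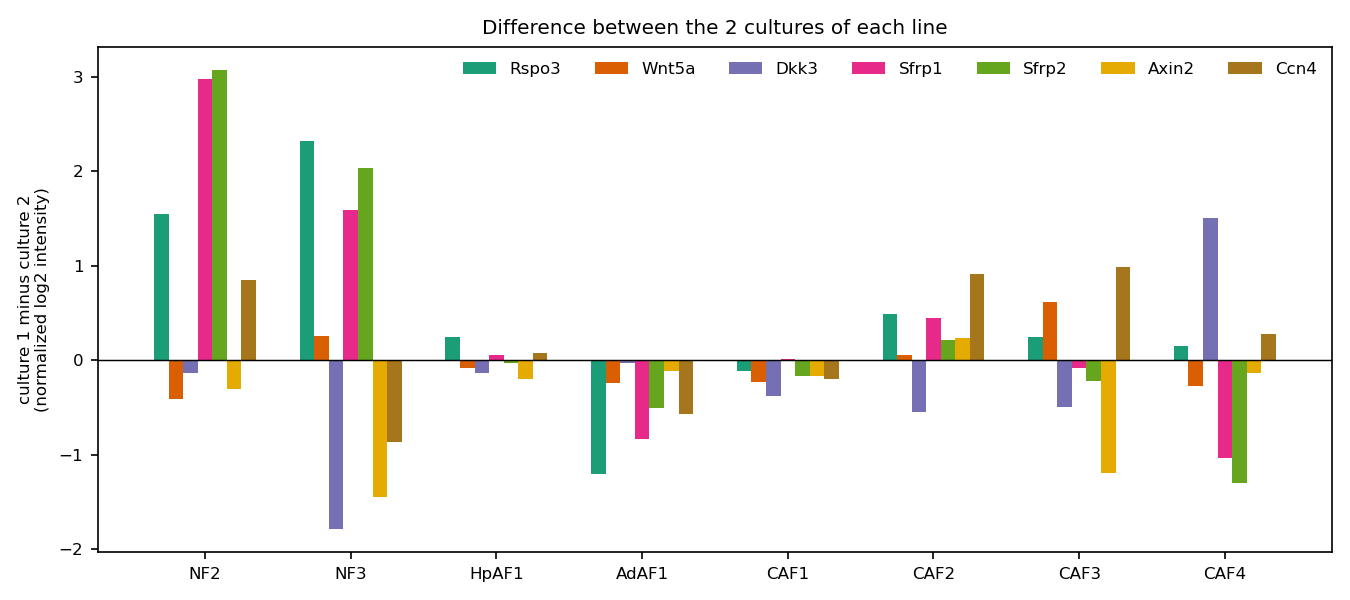
Culture 1 minus culture 2 in normalized log2 intensity (y axis) for the 7 tested genes in each line (x axis), as bars from 0. Rspo3, Sfrp1 and Sfrp2 were higher in culture 1 of both NF2 and NF3, by 1.55 to 3.07, and the bars of HpAF1 and CAF1 stay short.

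Axin2, a scaffold of the destruction complex that is itself switched on by beta-catenin and serves as a readout of canonical signalling, was dim throughout. It gave 5.61 and 5.91 for NF2, 5.21 and 6.66 for NF3, 5.35 and 5.54 for HpAF1, 6.37 and 6.48 for AdAF1, 5.00 and 5.18 for CAF1, 5.09 and 4.86 for CAF2, 6.43 and 7.62 for CAF3, and 7.04 and 7.17 for CAF4. Detection was reached on 5 arrays, all of CAF3 and CAF4 and culture 1 of AdAF1. Culture 2 of NF3, at 6.66, lay above culture 1 of CAF3 in value, but its array had the higher detection limit.

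The 250 bases before the Axin2 start are shown because this gene is a transcriptional target of the pathway, and those of Sfrp2 because its cultures differed most. Ccn4, the other target among the members, had no such sequence to show. Both come from RefSeq (GRCm38.p6, plus strand), run 5′ to 3′, and have CpG dinucleotides in capitals.
Axin2, chr11:108920099-108920348: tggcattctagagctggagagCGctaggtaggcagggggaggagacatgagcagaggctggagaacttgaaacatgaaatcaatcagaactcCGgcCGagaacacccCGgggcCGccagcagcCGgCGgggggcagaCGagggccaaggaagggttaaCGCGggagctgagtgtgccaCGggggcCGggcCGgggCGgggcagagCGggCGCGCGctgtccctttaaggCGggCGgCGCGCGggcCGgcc
Sfrp2, chr3:83766071-83766320: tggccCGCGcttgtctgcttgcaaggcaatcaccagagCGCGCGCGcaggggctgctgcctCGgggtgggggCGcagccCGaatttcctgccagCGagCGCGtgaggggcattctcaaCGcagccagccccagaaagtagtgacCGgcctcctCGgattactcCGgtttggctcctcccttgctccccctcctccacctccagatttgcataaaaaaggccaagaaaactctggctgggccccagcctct

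The Axin2 stretch held 24 CpG and 69.2% G and C, the Sfrp2 stretch 16 CpG and 63.6%, and the median over 32851 RefSeq promoters was 6 CpG and 52.4%. The TCF/LEF core letters CTTTGAA and CTTTGAT were searched on both strands in windows of 300 bases, the 250 above and the next 50. The windows of Axin2, Sfrp2 and Dkk2, the 3 of 8 members with one, held 0 matches, and 8.65% of all windows held one. No match says only that these letters are not in that window.

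Axin2 differed among lines (adjusted p = 0.0132, limma F test), with 6 of 28 pairs called. CAF3 and CAF4 were each called above HpAF1, CAF1 and CAF2 (adjusted p between 0.013 and 0.0273), in which no array detected Axin2. The gene met the filter for testing only through the arrays of CAF3 and CAF4, so the F test and these calls add little to its detection there. As bounds, CAF4 was at least 1.51-fold above HpAF1, at least 2.41-fold above CAF1 and at least 1.63-fold above CAF2. Neither CAF3 nor CAF4 was called against NF2 or against NF3 (adjusted p between 0.167 and 0.2715, limma). Without NF3 culture 2, CAF3 was called against both. Carcinoma minus normal was 0.20 (SE 0.69, adjusted p = 1), with 4 of 8 carcinoma arrays and 0 of 4 normal arrays detected.

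Ccn4, the matricellular protein Wisp1 and a further Wnt target, was the most even member. Its brighter probe gave 10.20 and 9.35 for NF2, 9.63 and 10.50 for NF3, 10.08 and 10.00 for HpAF1, 9.71 and 10.29 for AdAF1, 10.26 and 10.46 for CAF1, 10.44 and 9.53 for CAF2, 10.54 and 9.55 for CAF3, and 10.59 and 10.30 for CAF4. The cultures of 4 lines (NF2, NF3, CAF2 and CAF3) differed by 0.85 to 0.99, more than the range of 0.67 among line means, and the F test gave an adjusted p of 0.841. Carcinoma minus normal was 0.29, with an interval from -0.21 to 0.79 (adjusted p = 1, limma). The dimmer probe gave 0.60 (SE 0.20, unadjusted p = 0.0228, adjusted p = 1).

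**Figure D5:**
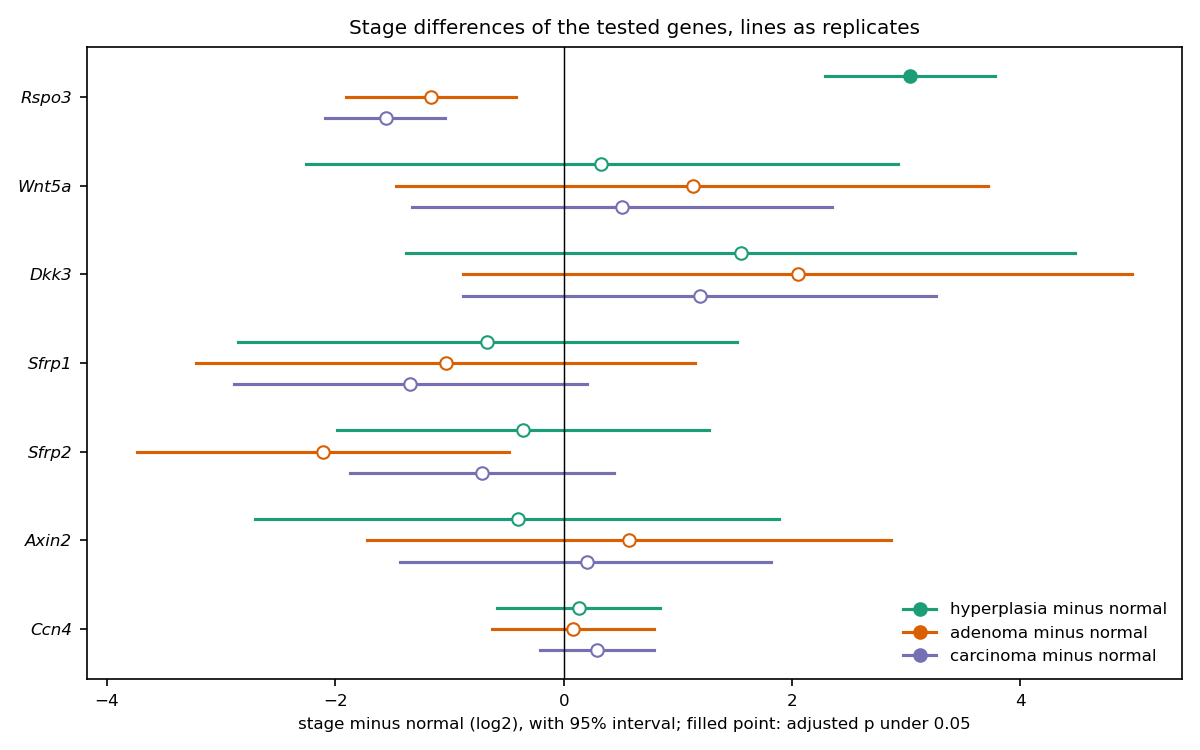
Stage minus normal in log2 (x axis) for the 7 tested genes (y axis), with lines as replicates and 95% intervals, filled where the adjusted p was under 0.05. Rspo3 in hyperplasia, at 3.03, is the only filled point, and the intervals of Dkk3 and Wnt5a are the widest.

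The other genes of the pathway were counted from lists of ligands, receptors, R-spondin partners, inhibitors, secretion factors, destruction complex, nuclear effectors and targets. Of 87 genes beside the members, 81 had a probe and 32 were tested. Among lines 11 of the 32 differed (34.4%, beside 25.9% of all tested genes), and in the stage comparisons none was called. The lists too were chosen with earlier results known, so that share does not test the pathway as a set. The median carcinoma difference over the 32 genes was 0.04, against 0 over all tested genes, and the hyperplasia median was -0.26 against -0.02. Apart from both normal lines were Fzd2 and Notum (lower) in HpAF1, Wnt4 (lower) in CAF1, and Wnt4 and Notum (lower) in CAF2.

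Fzd2, a Wnt receptor, gave 7.18 and 7.54 in HpAF1, against 8.33 and 8.30 in NF2 and 8.08 and 8.72 in NF3, and no HpAF1 array reached the normal ones (HpAF1 minus NF3 -1.04, adjusted p = 0.0197, limma).

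Wnt4, the ligand that mediates progesterone-driven side branching in mammary epithelium, was low in CAF1 and CAF2. It was detected on no array of those lines (5.05 and 4.95 in CAF1, 5.23 and 4.83 in CAF2), against 9.05 and 7.64 in CAF4, 7.82 and 6.81 in NF2 and 7.73 and 7.88 in NF3. As bounds, CAF1 was at least 2.78-fold lower than NF2 (adjusted p = 0.0193) and at least 3.92-fold lower than NF3 (adjusted p = 0.00446), and CAF2 was at least 1.89-fold lower than NF2 and at least 2.66-fold lower than NF3 (adjusted p = 0.0192 and 0.00679, limma).

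Notum, a secreted enzyme that strips the lipid from Wnts and is also a Wnt target, gave 5.31 and 5.28 in HpAF1 and 4.90 and 5.07 in CAF2, none detected, against 7.16 and 8.71 in NF2 and 7.64 and 7.11 in NF3. In CAF4 it gave 7.70 and 8.76 and in CAF3 5.77 and 6.77, and neither line was called against NF2 or NF3. In CAF3 the mean of Axin2 lay above both normal lines and that of Notum below both, and neither gene was called there. Of the other tested targets, Nkd2, Apcdd1 and Myc also had CAF3 means below both normal lines. Ccnd1 and Twist1 had means above both, and Ccn4 and Ccn5 lay between. None of these targets was called apart from both normal lines in CAF3. Ccn5 (Wisp2) gave 7.93 and 7.96 in CAF4, against 6.08 and 5.34 in HpAF1, where it was not detected, and CAF4 was at least 2.70-fold higher (adjusted p = 0.0168, limma).

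Downstream, of the transcriptional partners of beta-catenin Pygo1 had the largest range, 2.14. It gave 8.13 and 7.41 in CAF3, against 5.66 and 5.59 in HpAF1, where it was not detected, and CAF3 was at least 2.39-fold higher (adjusted p = 0.0039, limma). Bcl9l and Tcf7l1 were detected on all arrays and had their lowest line means in CAF1. Bcl9l gave 10.10 and 10.14 in CAF1, against 10.41 and 10.76 in NF2 and 11.12 and 10.91 in NF3, and CAF1 minus NF3 was -0.89 (adjusted p = 0.016), while CAF1 was not called against NF2. Tcf7l1 gave 10.26 and 10.35 in CAF1, against 10.64 and 10.66 in NF2 and 11.32 and 11.82 in NF3. The secretion factors Wls, Porcn and Vps35 were detected on all arrays and did not pass the F test (adjusted p between 0.248 and 0.375).

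Genes with the most similar profile were taken by Pearson's r of the 8 line means, among 3184 genes with a range of at least 1. The arrays share normalization, and with 8 lines a high r can be led by a single line. For Rspo3 they were Zfpm1 (r = 0.968), Gdpd2 (0.954) and Cadm1 (0.944), and for Wnt5a Rnf26 (0.927), Art3 (0.898) and Bhlhb9 (0.894). Dkk3 ran most like Dennd3 (0.964), Fam117a (0.944) and Sema3a (0.939), and Axin2 most like H1f10 (0.935), Htra3 (0.916) and Inhbb (0.887). The nearest to Sfrp1 were Dapk1 (0.901), Col23a1 (0.898) and Gldc (0.873), and to Sfrp2 Cilk1 (0.932), Cc2d2a (0.912) and Mblac1 (0.902). Over the 16 arrays every one of these values was lower, from 0.945 for Gdpd2 down to 0.600 for H1f10 and 0.428 for Col23a1. The likenesses are thus weaker, some of them much weaker, once cultures are kept apart. Ccn4 had a range under 1 and was left out.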

How the data were processed

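Total RNA of 16 samples was hybridised to an Illumina bead array. The authors deposited, per the file headers, the non-normalized intensity of each probe and its detection p-value against the array's negative controls, and a second table of intensity that by its values is quantile normalized, used as an alternative. No source used here names the scanner software. Of 25697 probes, 23978 carry 1 gene symbol in the platform annotation, 0 several and 1719 none.

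Intensities were background corrected and quantile normalized with neqc (limma 3.58.1, R 4.3.3, offset 16). Probes with detection p under 0.01 on at least 2 arrays were tested (10453, 40.7%), and a gene stands for its brightest tested probe. Lines were compared with limma (1 mean per line, 8 residual and 3.69 prior degrees of freedom), cultures as replicates. A lesion line is apart from both normal lines when it differs from NF2 and NF3 in the same direction. Stages were fitted on line means (4 residual and 2.96 prior), lines as replicates, lone lines being assumed to vary like the others. The p-values are two-sided and Benjamini-Hochberg adjusted over all tested probes (threshold 0.05). Where a group was undetected on all arrays, folds are bounds against each array's lowest detected signal. The number of arrays limits the precision. The fits were tested on simulated data.

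Members and lists were chosen with earlier results of these data known. Named genes are the members, up to 3 further tested genes per list with the largest range of line means, non-members called in a stage, and the 3 genes of most similar profile. Ror2, Ryk, Nkd2, Myc, Ccnd1, Twist1, Lgr4 and the undetected genes were added after their values were seen. Rspo2, Wnt4, Notum, Ccn5, Pygo1, Bcl9l and Tcf7l1 follow the rule. Alternatives were the second table, filters, background correction, offset, probe averaging, blocks and left-out samples.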

Additional observations from a re-analysis of the deposited data

Results flagged for a closer look

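In the dimmer Ccn4 probe, CAF3 had a line mean of 6.20 and lay away from the other 3 carcinoma lines, whose nearest mean was 6.40. The gap was 0.835 of the whole range of the 4 lines, above Dixon's 95% critical value for that many, and chance alone marks about 1 in 20 such groups. It was the only one of 11 probes marked. The CAF3 cultures of that probe were 6.83 in culture 1 and 5.57 in culture 2, which was not detected, so the gap is smaller than the spread between the cultures of CAF3.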

How the results depend on the processing

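Over 23 alternatives the number of members that differed among lines was 4 to 6, and Sfrp1 and Sfrp2 joined without either NF2 culture. The number of calls apart from both normal lines was 2, and 1 to 5 over the left-out cultures: 1 without either HpAF1 culture and 5 without NF3 culture 2. It was 3, with CAF1 added for Dkk3, in the authors' normalized table, with median scaling, with an offset of 50 and with probes averaged. Without NF2 culture 2 the 3 calls were Sfrp1 lower in CAF4, Sfrp2 lower in AdAF1 and Wnt5a higher in CAF3. Called neighbouring steps numbered 2, and 1 to 2 over the left-out cultures, 1 without NF2 culture 2, AdAF1 culture 1, CAF3 culture 1 or either HpAF1 culture. Members called in hyperplasia were 1, namely Rspo3, and 0 to 1 over left-out cultures and lines (0 without NF2 culture 2, either NF3 culture, or line NF2, NF3 or CAF3), 0 with detection required on at least 4 arrays (adjusted p = 0.0869), 0 with arrays of culture 1 alone (chosen after seeing the data) and 0 with the line as a random block and culture number as a replicate block (adjusted p = 0.0501, limma). Over its 33 alternatives the Rspo3 difference was 2.07 to 3.88, with adjusted p of 0.0102 to 0.179. Adenoma and carcinoma called 0 members throughout.

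Culture numbers were not taken as pairing the samples, since not every pair of lines passed 0.1: over 28 pairs the correlation of culture differences ran from -0.202 to 0.653, and 12 of 28 exceeded 0.1, among them all 10 pairs of NF2, NF3, CAF2, CAF3 and CAF4 (0.136 to 0.653). For 12 of 16 arrays the best correlated array of another line had the same number, a hint from the data and not from the design. As a replicate block in the line model it left 4 members differing among lines and 2 calls apart.

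Signs turned in 23 values, none of them called. Over left-out cultures and lines, hyperplasia minus normal ran from -0.12 (without NF3) to 0.78 for Wnt5a, -1.41 to 0.08 (without NF2 culture 1) for Sfrp1, -1.13 to 0.41 (without NF2 culture 1) for Sfrp2, with 0.15 without NF3 culture 1, and -0.09 (without NF2 culture 2 or NF3 culture 1) to 0.34 for Ccn4, with -0.02 without NF2. Adenoma minus normal ran from -0.21 (without AdAF1 culture 2) to 0.37 for Ccn4, with -0.13, -0.14 and -0.06 without NF2 culture 2, NF3 culture 1 and NF2. Carcinoma minus normal ran from -0.12 (without CAF3) to 0.96 for Wnt5a, -1.48 to 0.05 (without NF2 culture 1) for Sfrp2, and -0.16 (without NF3 culture 1) to 0.56 for Axin2, with -0.13 without CAF3 and -0.15 without CAF4. With culture 2 alone, hyperplasia minus normal was 0.45 for Sfrp1 and 0.93 for Sfrp2, adenoma minus normal 0.40 for Rspo3 and 0.52 for Sfrp1, and carcinoma minus normal 0.74 for Sfrp2 and -0.08 for Axin2. With culture 1 alone, adenoma minus normal was -0.20 for Ccn4. Where a sample was left out, fewer samples were fitted, and beyond that the cause was not tested. Dim probes such as Rspo3 and Axin2 are limited by signal over background.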
